A study of Mus musculus with 4 samples.

Results

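The locus described here is the gene Sult2a8 (ENSMUSG00000030378.15) with 50 kb on either side, in chromatin accessibility profiles of hepatocyte nuclei from regenerating mouse liver. Sult2a8 is 1 of the 55450 genes of the GENCODE vM21 annotation. On the mm10 build it lies at chr7:14410686-14446769 on the minus strand, so that the window runs from 14360686 to 14496769. It was chosen because earlier results of these same libraries showed its accessibility to be low at 48 hours after partial hepatectomy (PHx). The levels, lengths, open shares and correlations below were therefore part of the choice, and they are given as a description, with no test.

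Hepatocytes were isolated by collagenase perfusion from C57BL/6J male mice, which the labels give as 10 to 12 weeks old and fed a normal diet, and their nuclei were profiled by single-cell ATAC-Seq (scATAC-Seq), in which a transposase cuts open DNA and a droplet barcode marks the nucleus. PHx removes most of the liver, and the remaining hepatocytes divide and restore its mass. The 4 libraries were made from undamaged liver (PHx 0 h) and from liver 48, 72 and 96 h after PHx, with no genetic change or drug in any group. There was 1 library per time, made from 1 hepatocyte preparation at PHx 0 h and at 48 h, so a difference between times cannot be told apart from a difference between animals, preparations or libraries, and every interval given below covers counting error only.

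Cytosolic sulfotransferases move a sulfate group from the donor PAPS to small molecules, which makes them more soluble and often inactive. The Sult2a branch acts on hydroxysteroids and bile acids, and Sult2a8 is a liver member of it in the mouse. Sulfated bile acids are poorly taken back up and leave the body more easily. Open chromatin at a gene shows that its DNA can be reached by proteins, and it is not a measure of transcription.

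The gene has 8 annotated transcripts with starts in 2 main clusters, named here the outer and the inner starts. The outermost start is at 14446769 and the inner cluster reaches from 14438509 to 14438561. The peaks that the 4 libraries called in the window merged into 7 regions. Along the direction of transcription these were a small peak inside the neighbouring gene Sult2a7 (14492647-14493467), a small upstream peak (14452526-14453064), the outer start region (14445381-14447579), the inner start region (14433499-14444649), the exon region with the rest of the gene body (14410188-14432648), a small peak just beyond the gene (14409187-14409456) and the downstream region (14396155-14404201). The pseudogene Crs-ps also lies in the window, and no peak was called over it.

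Stretches of 240 bases are shown for the outer and inner starts, which carry the promoters, for the downstream region, and for the peaks that were not called in every library. They were read from the GRCm38.p6 assembly in RefSeq, the same build as mm10, and are printed 5′ to 3′ on the minus strand, the strand of the gene. Capitals mark matches, on either strand, to 10 fixed strings of letters. The stretch before the outer starts is chr7:14446770-14447009 and that before the inner starts is chr7:14438562-14438801. The downstream stretch is chr7:14396564-14396803, the stretch called at PHx 0 h only is chr7:14409202-14409441, and the stretch called at PHx 0 h and 48 h is chr7:14452679-14452918.
upstream of the outer starts: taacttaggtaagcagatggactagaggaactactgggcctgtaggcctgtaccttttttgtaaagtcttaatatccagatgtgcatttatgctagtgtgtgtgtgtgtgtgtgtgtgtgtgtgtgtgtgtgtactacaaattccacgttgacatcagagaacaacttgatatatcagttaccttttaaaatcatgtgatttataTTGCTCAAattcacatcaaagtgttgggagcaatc
upstream of the inner starts: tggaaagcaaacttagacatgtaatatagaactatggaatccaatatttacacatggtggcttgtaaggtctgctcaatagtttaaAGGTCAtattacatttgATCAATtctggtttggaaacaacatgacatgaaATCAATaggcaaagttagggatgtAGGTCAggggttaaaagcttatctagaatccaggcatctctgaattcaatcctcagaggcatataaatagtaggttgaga
downstream region: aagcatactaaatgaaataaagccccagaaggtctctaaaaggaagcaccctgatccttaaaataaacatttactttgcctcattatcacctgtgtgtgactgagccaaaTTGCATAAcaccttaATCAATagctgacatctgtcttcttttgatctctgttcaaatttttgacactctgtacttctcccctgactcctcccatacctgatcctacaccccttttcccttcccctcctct
peak called at PHx 0 h only: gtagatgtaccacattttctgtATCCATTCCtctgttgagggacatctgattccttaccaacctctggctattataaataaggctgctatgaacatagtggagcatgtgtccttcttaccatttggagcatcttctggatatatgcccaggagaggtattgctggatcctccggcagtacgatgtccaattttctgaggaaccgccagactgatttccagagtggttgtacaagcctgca
peak called at PHx 0 h and 48 h: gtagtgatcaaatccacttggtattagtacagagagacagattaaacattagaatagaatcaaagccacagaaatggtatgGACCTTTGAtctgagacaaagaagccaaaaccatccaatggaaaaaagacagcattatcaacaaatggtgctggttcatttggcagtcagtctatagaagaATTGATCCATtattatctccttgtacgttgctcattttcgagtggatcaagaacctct

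The stretch before the outer starts held 1 match, to the C/EBP string TTGCNNAA. The stretch before the inner starts held 4 matches, which were 2 nuclear receptor half-sites (AGGTCA) and 2 copies of the string of HNF6 and CUX2 (ATCNAT). The downstream stretch held TTGCNNAA and ATCNAT once each. The stretch of PHx 0 h only held ATCNAT next to the TEAD string GGAATG on the reverse strand, with shared letters. The stretch of PHx 0 h and 48 h held TCANAGGTC, a direct repeat of half-sites bound by PPAR with RXR, once on the reverse strand and overlapping copies of ATCNAT.

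Among the central 240 bases of 105693 peaks called at PHx 0 h, ATCNAT was found in 25% of peaks, AGGTCA in 19.8%, TTGCNNAA in 13%, GGAATG in 12.3% and TCANAGGTC in 1.65%. AGGTCA shares letters with TCANAGGTC but is not contained in it. The other 5 strings had no match in the 5 stretches: CAAAGTCCA of the HNF4 family (1.12% of peaks), GTTAATNAT of HNF1 (1.21%), TGTTTAC of FOXA (4.93%), TTCNNNGAA of STAT and BCL6 (7.19%) and TGANTCA of AP-1 (7.86%). A match is a description of letters, not a bound site.

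Much of the locus is repeated DNA. The assembly marks 50.7% of the bases in its PHx 0 h peaks as repeats, and the median over all peaks of that library was 13.9%. The peak called at PHx 0 h only is 97.4% repeat, against 1.01% of all PHx 0 h peaks that are over 90% repeat. The downstream region, with 13.7% of the locus counts at PHx 0 h, is 81.7% repeat, and its printed stretch 37.9%. The inner start region is 52.8% repeat, although the printed stretch before the inner starts is only 2.92% repeat. How reads that map to several copies were placed is not stated for these files, and the Sult2a genes are also near copies of each other, so counts at these sites are uncertain to that extent.

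The libraries differ in depth, and this touches every value. With a minimum of 1000 counts per barcode, 3977, 3892, 4256 and 3224 nuclei remained at 0, 48, 72 and 96 h, and the median counts per nucleus went from 26005 through 11629 and 4841 to 3682. Among all deposited barcodes, before that minimum, between 681 and 882 occurred in both libraries of a pair, which is 13.9% to 19.0% of the barcodes of the smaller library, and whether these are the same nuclei was not tested. Of the 10 hepatocyte markers 9 were open in every library, at a sum of 2765 to 4337 CPM (counts in 1000000), and the other, Tf, was not matched by name. The 29 markers of endothelial, immune, stellate and biliary cells summed to 408 CPM at PHx 0 h, 569 at 48 h, 640 at 72 h and 468 at 96 h. Of those 29, 9, 4, 3 and 10 had no peak at 0, 48, 72 and 96 h, among them the Kupffer cell marker Cd5l in every library, and the level of the locus without nuclei rich in these markers is given below.

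Summed over its peaks, accessibility at Sult2a8 was highest in the undamaged liver, whereas per kb of peak it was highest at 96 h, as given below. The locus is given in CPM, that is, its peak counts per 1000000 counts in all peaks of the same nuclei. It stood at 317 CPM (95% interval 313–321) at PHx 0 h, 93.0 (89.6–96.4) at 48 h, 80.2 (75.3–85.4) at 72 h and 149.8 (141–159) at 96 h. No interval overlapped another, with the lowest level at 72 h and a level at 96 h between those of 48 h and PHx 0 h. The underlying counts were 43267, 5764, 1983 and 2237. Relative to PHx 0 h the level was 3.41-fold lower at 48 h, 3.95-fold lower at 72 h and 2.12-fold lower at 96 h, which is a log2 ratio of −1.77, −1.98 and −1.08.

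The number of peaks and their length changed at the same time. The window held 7 peaks at PHx 0 h, 16 at 48 h, 10 at 72 h and 7 at 96 h. They covered 45251, 24039, 15144 and 12806 bases in that order. In undamaged liver the gene lay under 3 long peaks with almost no gaps, and at 48 h the exon region held 7 shorter peaks and the inner start region 3, while the outer start region held 1 of nearly the same length. Peaks were called in each library by itself, so a longer peak also collects more counts.

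Per kb of called peak the locus held 7.0 CPM at PHx 0 h, 3.87 at 48 h, 5.30 at 72 h and 11.7 at 96 h. This density was 1.81-fold lower at 48 h and 1.32-fold lower at 72 h than in undamaged liver, and at 96 h it was higher. The mean density over all peaks moved as well, with 6.51, 5.59, 7.08 and 16.4 CPM per kb. Divided by that mean, the 48, 72 and 96 h libraries had log2 ratios to PHx 0 h of −0.63, −0.52 and −0.59. The sum of counts and the density therefore place the locus below PHx 0 h at 48 h and at 72 h, and at 96 h the direction depends on whether the library's own density is taken into account.

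**Figure D1:**
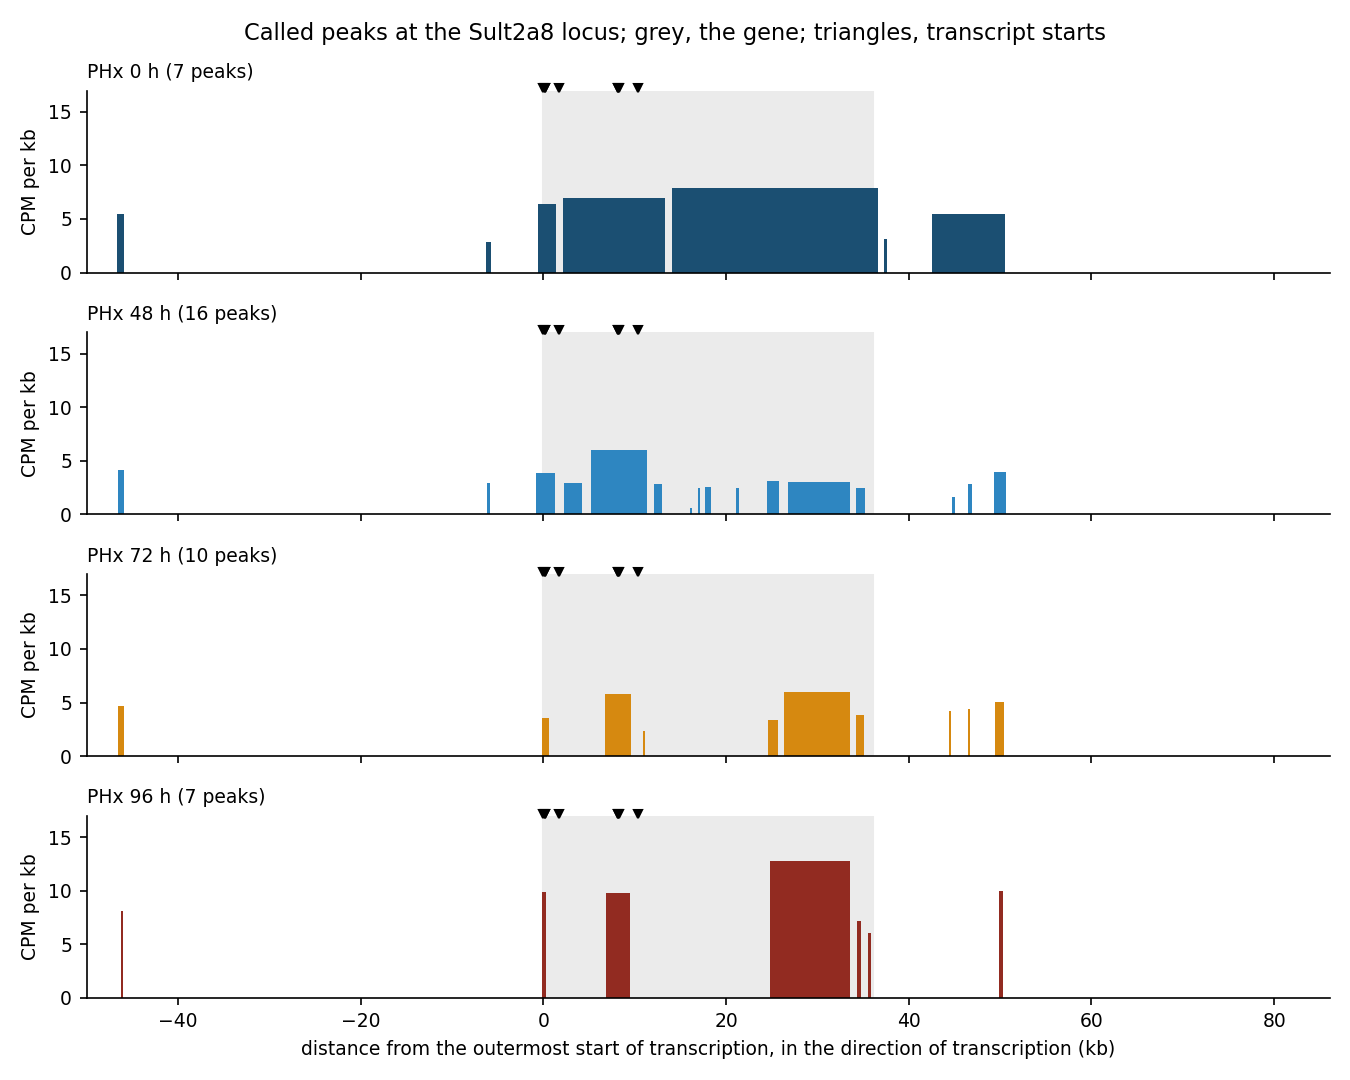
Called peaks at the Sult2a8 locus in each library, with distance from the outermost start in kb along the direction of transcription on the horizontal axis and density in CPM per kb of peak on the vertical axis. Grey marks the gene, triangles mark annotated starts, and bar widths are peak lengths (at least 0.25 kb drawn). At PHx 0 h 3 of the 7 peaks cover the gene almost without a gap, and at 48 h 11 of the 16 peaks cover it with wider gaps.

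The summed levels of the regions differed in order between libraries, while per kb of called peak the exon, inner start and downstream regions were each lowest at 48 h and highest at 96 h. The exon region, which holds all annotated coding exons of the gene, held 55.7% of the locus counts at PHx 0 h. It measured 176 CPM (173–180) at PHx 0 h, 29.6 (27.7–31.6) at 48 h, 50.3 (46.4–54.4) at 72 h and 114.8 (107–123) at 96 h. It was lowest at 48 h, 5.95-fold below PHx 0 h, and higher at each later time, and per kb it held 7.85, 2.93, 5.43 and 12.4 CPM. From 48 h to 96 h it was 3.87-fold higher with 10111 bases called at 48 h and 9219 at 96 h. Library-wide density also differed between these libraries, since the mean over all peaks was 2.94-fold higher at 96 h, and 546 regions with a single peak of near-equal length in both had a median 2.23-fold higher level.

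Most of this lay in 1 peak of the gene body that covers 2 annotated exon intervals. It was called at 14413175-14419997 at 48 h with 20.7 CPM, at 14413260-14420464 at 72 h with 42.9 CPM and at 14413255-14421972 at 96 h with 111 CPM (104–119). These 3 peaks overlap over most of their length. Per kb they held 3.03, 5.95 and 12.8 CPM.

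The inner start region held 4 starts at PHx 0 h, the inner cluster and 1 further downstream. It measured 77.1 CPM (75.0–79.2) at PHx 0 h, 44.8 (42.5–47.3) at 48 h, 17.4 (15.1–19.9) at 72 h and 25.8 (22.3–29.8) at 96 h. This sum was lowest at 72 h, 4.43-fold below PHx 0 h, and at 48 h it was 1.72-fold lower. Its called length was 11151, 8959, 3063 and 2652 bases, and per kb it held 6.91, 5.0, 5.68 and 9.75 CPM, so by density it was lowest at 48 h, as the exon region was. Its share of the locus counts was 24.3% at PHx 0 h, 48.2% at 48 h, 21.7% at 72 h and 17.3% at 96 h. At 48 h it was thus the largest region of the locus.

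The outer start region covers the 3 outermost starts. It measured 13.0 CPM (12.2–13.9) at PHx 0 h, 8.10 (7.13–9.16) at 48 h, 2.51 (1.70–3.56) at 72 h and 3.95 (2.66–5.66) at 96 h. The intervals at 72 h and 96 h overlap, and in this sum all later libraries lie below PHx 0 h. Only 710 and 401 bases were called at 72 h and 96 h, and per kb the region held 6.44, 3.84, 3.53 and 9.85 CPM, with 96 h above PHx 0 h. The called lengths at PHx 0 h and 48 h were nearly equal, 2020 and 2106 bases, so this pair compares nearly the same stretch, and the level was 1.61-fold lower at 48 h. Of 25021 regions with a single peak of near-equal length (within 10%) in both libraries, 4.40% were at least 1.5-fold lower at 48 h, and their median log2 ratio was −0.09.

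The downstream region lies beyond the 3′ end of the gene and overlaps no annotated gene. It measured 43.4 CPM (41.9–45.0) at PHx 0 h, 6.56 (5.69–7.53) at 48 h, 6.92 (5.53–8.55) at 72 h and 4.69 (3.26–6.52) at 96 h. The 3 later libraries overlap each other and all lie far below undamaged liver, by 6.61-, 6.28- and 9.26-fold. In this sum, unlike that of the exon region, 96 h was no higher than 48 h. Its called length went from 7989 bases in 1 peak to 1830, 1447 and 468 bases, and per kb it held 5.43, 3.59, 4.78 and 10.0 CPM.

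The remaining peaks were small. The peak inside Sult2a7, a neighbouring sulfotransferase gene, held 4.46 CPM (3.97–4.99) at PHx 0 h, 2.85 (2.29–3.52) at 48 h, 3.07 (2.18–4.22) at 72 h and 0.536 (0.146–1.37) at 96 h. At 96 h this rests on 8 counts in a peak of 66 bases. The upstream peak was called at PHx 0 h with 1.55 CPM and at 48 h with 0.984 CPM, and the peak just beyond the gene at PHx 0 h alone with 0.835 CPM, from 114 counts. Where no peak was called, the tables hold no counts, so absence of a call is not a measured 0.

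**Figure D2:**
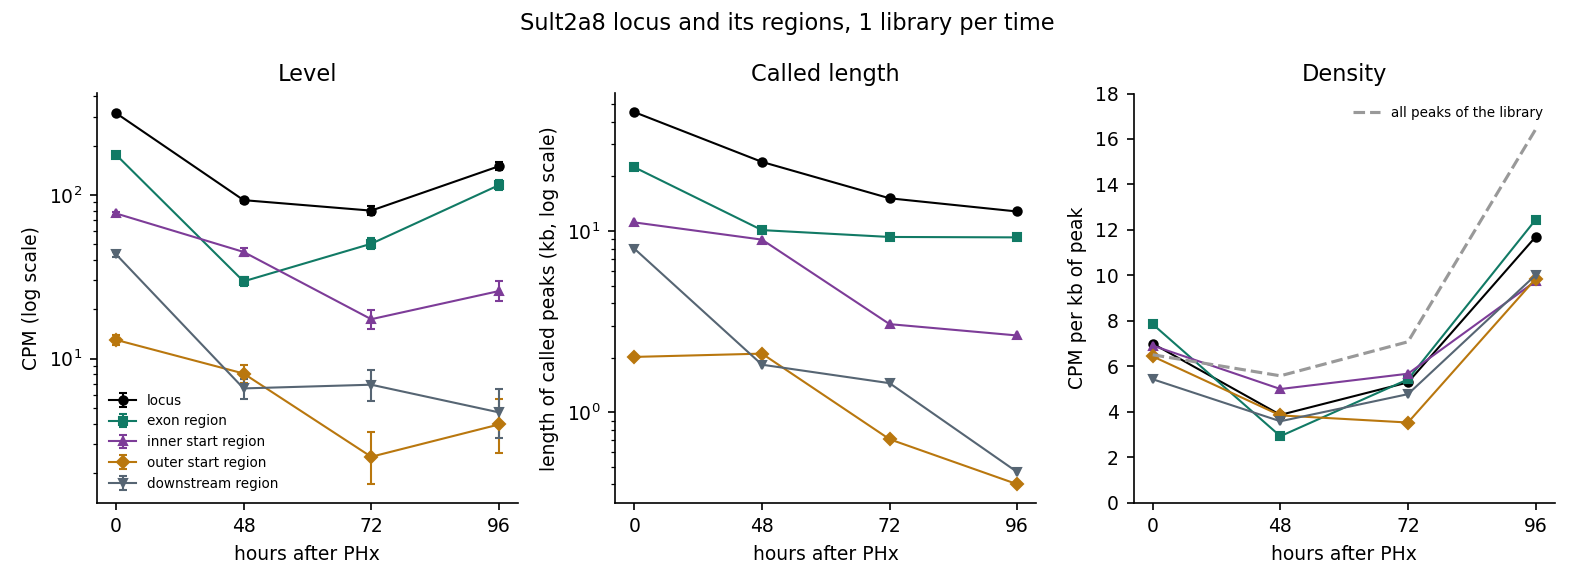
Level in CPM, length of called peaks in kb (both on a log axis) and density in CPM per kb for the locus and 4 of its regions at each time after PHx, with 1 library per time. Bars on the levels are exact 95% Poisson intervals, and the dashed line is the mean density of all peaks of each library, which reaches 16.4 CPM per kb at 96 h. In level the exon region is lowest at 48 h and the inner start region at 72 h, and in density both are lowest at 48 h.

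Levels beyond the window edge differed between libraries as well. On the upstream side the nearest peaks outside the window began 12455 bases past its edge at PHx 0 h and 21495 bases past it at 96 h, and the peak inside Sult2a7 was the last one within it. Peaks in the next 50 kb on that side, where only pseudogenes are annotated up to Nlrp5-ps, summed to 130.9 CPM at PHx 0 h, 85.8 at 48 h, 42.9 at 72 h and 55.5 at 96 h. They covered 21925, 16471, 6620 and 3748 bases, and per kb they held 5.97, 5.21, 6.48 and 14.8 CPM, which is above PHx 0 h at 72 h and 96 h. On the other side the nearest peak outside lay 42870 bases from the edge at PHx 0 h with 4.58 CPM.

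Against the genome as a whole, a level this far below PHx 0 h was uncommon at 48 h and less so later. For this comparison each gene was given the sum of the peaks over it and 2000 bp upstream, with a pseudocount of 1 CPM, and 13891 protein-coding genes with a mean of at least 10 CPM were compared. At least 2-fold lower levels than at PHx 0 h were found for 2.01% of these genes at 48 h, 6.28% at 72 h and 8.55% at 96 h, and at least 2-fold higher levels for 4.07%, 8.14% and 4.2%. Sult2a8 alone, without the flanks, had log2 ratios of −1.68, −1.91 and −0.88 on this scale and was past 2-fold at 48 h and 72 h, but not at 96 h. It ranked 83 from the lowest at 48 h, and since the gene was chosen for that value the rank is no evidence of its own.

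The same holds for single regions. Of the 7 regions of the locus, 4 had a peak in all 4 libraries and a mean of at least 3 CPM, namely the downstream, exon, inner start and outer start regions. Of these, 2 were at least 2-fold lower at 48 h, 4 at 72 h and 3 at 96 h, where 0.961%, 4.22% and 7.78% of 54132 such regions were. Per kb, 1 of the 4, the exon region, was at least 2-fold lower at 48 h and none was at 72 h or 96 h, where 0.164%, 0.0998% and 0.236% of all regions were. These 4 regions lie next to each other and are not independent. Across all regions, the log2 ratio of the counts and that of the called length moved together (Pearson r = 0.82 at 48 h, 0.84 at 72 h and 0.86 at 96 h, across regions that share libraries).

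The share of nuclei with an open locus was compared at equal depth by drawing 2000 counts from each nucleus. A nucleus was called open where at least 1 of these fell in the locus. At PHx 0 h 1509 of 3719 nuclei were open (40.6%, exact binomial interval 39.0% to 42.2%), at 48 h 505 of 3579 (14.1%, 13.0%–15.3%), at 72 h 400 of 3620 (11.1%, 10.0%–12.1%) and at 96 h 471 of 2484 (19.0%, 17.4%–20.6%). The order of the libraries is that of the CPM, and no interval overlapped another. Without equal depth the shares were 79.2%, 40.1%, 18.3% and 24.5%, which puts 48 h above 96 h. Depth and time cannot be told apart in the latter shares. Both ends of a fragment are drawn together more often from a shallow nucleus than from a deep one, so the drawn shares are not free of depth.

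By region, 26.1% of nuclei were open in the exon region at PHx 0 h, 4.69% at 48 h, 6.93% at 72 h and 14.6% at 96 h. The inner start region was open in 11.6%, 7.29%, 2.57% and 3.99%.

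Opening of the gene and of the peaks outside it was compared within the same nuclei. In undamaged liver the gene was open in 35.9% of all nuclei and in 42.4% (36.7%–48.2%) of the 302 nuclei with a count in a peak outside the gene. At 48 h the values were 12.5% and 10.6% (4.37%–20.6%), the latter from 66 nuclei. At 72 h and 96 h 59 and 18 nuclei had a count outside the gene, and the intervals there are wide.

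**Figure D3:**
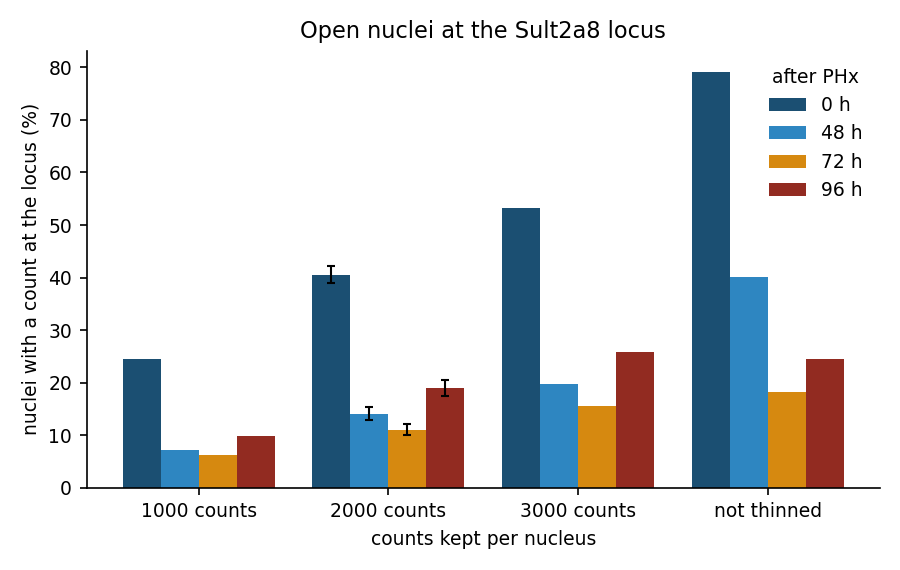
Percent of nuclei with at least 1 count at the Sult2a8 locus after drawing 1000, 2000 or 3000 counts per nucleus, and without drawing, for each time after PHx. Bars start at 0, and error bars, at 2000 counts, are exact binomial 95% intervals. At each equal depth PHx 0 h is highest, followed by 96 h, 48 h and 72 h, and without equal depth 48 h stands above 96 h.

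Since the libraries differ in depth, the level was also read within classes of nuclei of similar depth. In nuclei with 10000 to 30000 counts the locus stood at 291 CPM (282–301) at PHx 0 h, 96.0 (91.1–101) at 48 h, 90.4 (81.3–100.2) at 72 h and 181 (161–202) at 96 h. In nuclei with 1000 to 3000 counts it was 279 CPM (228–339), 74.0 (51.9–103), 66.0 (52.0–82.7) and 115.6 (97.4–136). PHx 0 h was above every later library within each of these classes, and 96 h above 48 h and 72 h in the deeper one. In the shallower class the intervals of 48 h and 96 h overlap.

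The level was nearly the same without nuclei rich in markers of other cell types. Nuclei in which counts at non-parenchymal markers reached those at hepatocyte markers numbered 168 at PHx 0 h, 185 at 48 h, 464 at 72 h and 146 at 96 h. They are a range of a score and not a cell type, and 245, 245, 840 and 463 nuclei had the 2 marker sums within 2 counts of each other. In them the locus stood at 50.1 CPM (31.0–76.6), 17.2 (5.96–38.6), 55.3 (39.4–75.4) and 101 (56.0–168). Without them the locus stood at 318, 93.8, 81.7 and 151 CPM in the remaining nuclei. At equal depth 4.69% (1.74%–9.92%) of them were open at PHx 0 h against 41.9% of the others, with median depths of 4731 and 29432 counts. At 48 h the shares were 2.97% (0.617%–8.44%) and 14.4%. At 72 h they were 7.04% (4.35%–10.7%) and 11.4%, and at 96 h 9.43% (3.13%–20.7%) and 19.2%. Whether the counts in these nuclei come from hepatocytes or from free DNA was not tested. Read as the background of the measure, their share was far below that of the others at PHx 0 h and closer to it at 72 h and 96 h, where the intervals of the 2 groups overlap.

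The ratios were also close without barcodes found in more than 1 library. Such barcodes made up 877 of the nuclei at PHx 0 h, 237 at 48 h, 125 at 72 h and 123 at 96 h. Their locus level was 324, 92.9, 91.5 and 230 CPM, against 309.7, 93.0, 79.8 and 144 CPM in all other nuclei. At 96 h these nuclei thus stood higher than the rest. They also differed in depth, with median counts of 72341, 45764, 4281 and 5616 at 0, 48, 72 and 96 h. The other nuclei had 19442, 11115, 4852 and 3656. Without them the log2 ratios to PHx 0 h were −1.74, −1.96 and −1.10.

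**Figure D4:**
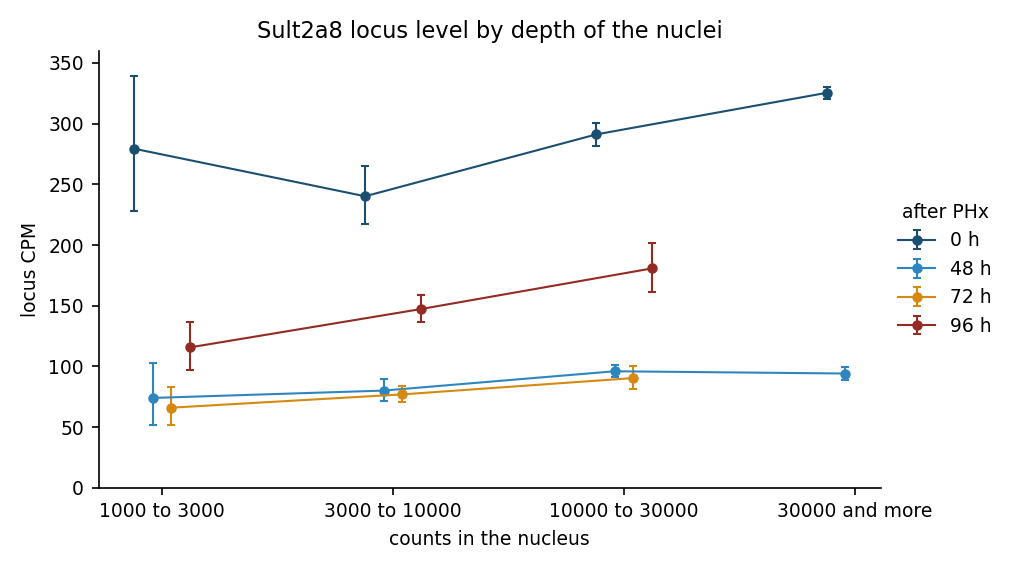
Locus level in CPM on the vertical axis, in nuclei grouped by their total counts on the horizontal axis, for each time after PHx, with exact 95% Poisson intervals. Classes with fewer than 20 nuclei are not drawn, which leaves out the deepest class at 72 h and 96 h. PHx 0 h lies above every later library in each class.

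Cyp2e1, a cytochrome P450 that metabolises ethanol and paracetamol, marks pericentral hepatocytes, the cells around the central vein. It lies on the same chromosome, at chr7:140763739-140774987, far from Sult2a8. It stood at 325 CPM (321–329) at PHx 0 h, 224 (219–229) at 48 h, 138 (132–145) at 72 h and 191 (182–202) at 96 h. Per kb of peak it held 16.3, 12.5, 9.54 and 16.8 CPM. In summed level it was thus also lowest at 72 h. At 48 h this sum was only 1.45-fold below PHx 0 h, where that of the Sult2a8 locus was 3.41-fold below it. Per kb, Cyp2e1 was 1.30-fold lower at 48 h and 1.71-fold lower at 72 h. The locus was 1.81-fold and 1.32-fold lower per kb, so by density it was lowest at 48 h and Cyp2e1 at 72 h.

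Within each library, nuclei with counts at Cyp2e1 were more often open at Sult2a8. At PHx 0 h the locus was open in 36.7% (34.8%–38.5%) of nuclei with no Cyp2e1 count, 46.9% (42.9%–50.9%) of those with 1 and 52.2% (47.9%–56.5%) of those with 2 or more. At 48 h the shares were 12.7% (11.5%–14.0%), 16.1% (13.0%–19.7%) and 23.2% (18.6%–28.2%). At 72 h they were 10.6%, 12.8% and 14.6%, with overlapping intervals. At 96 h they were 17.1% (15.5%–18.9%), 26.3% (21.1%–32.0%) and 26.2% (20.7%–32.3%). At PHx 0 h, 48 h and 96 h the class with no Cyp2e1 count and that with 2 or more do not overlap.

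As a correlation across nuclei drawn to 2000 counts this link was weak. Pearson's r between locus and Cyp2e1 counts was 0.099 at PHx 0 h (n = 3719 nuclei), 0.078 at 48 h (n = 3579), 0.033 at 72 h (n = 3620) and 0.075 at 96 h (n = 2484). The nuclei of a library share 1 preparation and 1 peak set, and with counts this sparse r has little room. Of the genes with at least 50 CPM in each library that lie more than 1 Mb from Sult2a8, 0 of 5492 had a higher r with the locus at PHx 0 h, 0 of 5130 at 48 h, 209 of 5054 (4.14%) at 72 h and 4 of 5384 at 96 h. Since the link with Cyp2e1 was part of the choice of the locus, these ranks are a description only.

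Other zonated genes were compared with the locus in the same way. Among 8 pericentral genes other than Cyp2e1 the median r was 0.025 at PHx 0 h, 0.038 at 48 h, 0.011 at 72 h and 0.010 at 96 h, and 7, 8, 6 and 8 of them were above 0. Among 10 periportal genes, which mark the cells around the portal vein, it was −0.004, −0.029, 0.006 and −0.025, with 4, 1, 6 and 0 above 0. Over all genes compared above, the median r was −0.0013, −0.0005, 0 and −0.0005. Their 5th to 95th percentiles were −0.032 to 0.034 at PHx 0 h, −0.028 to 0.031 at 48 h and at 72 h, and −0.032 to 0.035 at 96 h. The medians of both lists lay within these percentiles at PHx 0 h, 72 h and 96 h, and outside them at 48 h. The gene Hsd17b13, a lipid droplet protein in the periportal list, had the lowest r of that list at PHx 0 h (−0.077), at 48 h (−0.057) and at 96 h (−0.076). Glul, the glutamine synthetase of the innermost pericentral cells, reached 0.030, 0.062, −0.024 and 0.026. The ranges of the lists overlap at PHx 0 h, 48 h and 72 h and not at 96 h, all values are small, and no p is given.

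**Figure D5:**
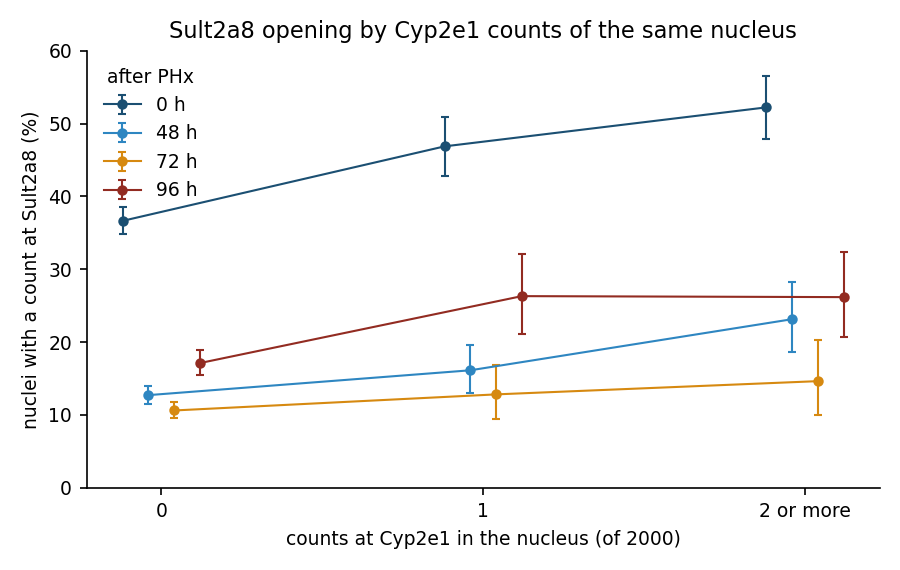
Percent of nuclei with at least 1 count at the Sult2a8 locus, by the number of counts at Cyp2e1 in the same nucleus after drawing 2000 counts from each, for each time after PHx, with exact binomial 95% intervals. The share is higher with 2 or more Cyp2e1 counts than with none in each library (52.2% against 36.7% at PHx 0 h), and at 72 h the intervals overlap.

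The other genes of sulfation were read from a fixed list. It held 27 genes, of which 26 were matched by name, 25 had a peak in at least 1 library and 13 reached a mean of 10 CPM. Of these 13, 1 was at least 2-fold lower at 48 h (2.01% of all genes), 2 at 72 h (6.28%) and 2 at 96 h (8.55%). None was at least 2-fold higher, where 4.07%, 8.14% and 4.2% of all genes were, and with 13 genes these counts are too small to set against those shares. The median log2 ratio of the 13 was −0.16, −0.18 and 0.05, where all 13891 genes had −0.06, −0.05 and 0.07.

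Papss2, which with Papss1 makes the sulfate donor PAPS, stood at 208, 96.5, 97.5 and 114 CPM at 0, 48, 72 and 96 h. Its called length went from 39185 bases through 19080 and 16012 to 8684, and per kb it held 5.31, 5.06, 6.09 and 13.2 CPM, so the lower sums went with shorter peaks. Papss1 stood at 72.0, 79.5, 105 and 111 CPM, and per kb at 8.04, 6.23, 8.45 and 22.5.

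Sult1a1, a phenol sulfotransferase, stood at 113 CPM at PHx 0 h, 101 at 48 h, 16.5 at 72 h and 10.2 at 96 h. Its sum was thus still close to PHx 0 h at 48 h and lowest at 96 h. Its called length went from 16220 and 16226 bases to 3142 and 789, and per kb it held 6.98, 6.23, 5.25 and 12.9 CPM, which is highest at 96 h. Sult5a1 stood at 20.2, 17.8, 11.9 and 8.97 CPM, and per kb at 4.94, 4.38, 5.81 and 11.4.

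The 6 other Sult2a genes, which lie outside the window, held at most 10.4 CPM in any library and stayed under the mean of 10 CPM. Of the 5 with a peak at both PHx 0 h and 48 h, 2 were higher and 3 lower at 48 h in summed CPM. Per kb of peak, Sult2a1, Sult2a3, Sult2a4 and Sult2a6 were higher at 48 h and Sult2a5 was lower. With so few genes at so low a level, neither split was set against all genes. Sult2b1, which acts on cholesterol and other hydroxysteroids, stood at 29.1, 50.9, 41.6 and 37.6 CPM, and per kb at 4.85, 5.08, 6.62 and 14.5. Its called length was 6006, 10014, 6276 and 2589 bases, and the sum and the length were both highest at 48 h.

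The genes whose pattern was most like that of Sult2a8 were sought by the smallest Euclidean distance between log2 ratios to PHx 0 h over the 4 libraries, among 5463 protein-coding genes with at least 50 CPM at PHx 0 h. They were Depp1 (distance 0.261), G6pc (0.268), Edf1 (0.427), Gpt (0.466) and Rsc1a1 (0.481). G6pc, which encodes the glucose-6-phosphatase that releases glucose from the liver, stood at 404, 137, 101 and 188 CPM. Depp1 stood at 226, 74.1, 70.5 and 118 CPM. Gpt, an alanine aminotransferase, stood at 126.7, 43.7, 44.2 and 61.9 CPM. Their called lengths were also shorter after PHx. The log2 length ratios at 48 h lay between −2.23 for Edf1 and −0.55 for G6pc, beside −0.75 for Sult2a8. For Edf1 and Rsc1a1 the length fell by more than the sum (log2 −2.23 and −1.75 against −1.67 and −1.37). Per kb both were thus higher at 48 h than at PHx 0 h. For Depp1, G6pc and Gpt, as for Sult2a8, the sum fell by more than the length, so per kb they were lower.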

How the data were processed

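The deposited files hold, for each of the 4 libraries, counts of transposase cuts per peak and barcode, made by the authors with Cell Ranger ATAC on mm10. No source used here gives its version or peak calling settings, and peaks were called in each library by itself. Most entries (87.3% to 88.6%) are even, since both ends of a fragment usually fall in the same peak, so counting intervals were taken on counts divided by 2 (exact Poisson, 95%). They cover counting error only.

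The locus and the gene lists were chosen with earlier results of these data known. Barcodes with at least 1000 counts were kept, counts were scaled to CPM of all peak counts, and equal depth was set by drawing 2000 counts per nucleus without replacement with a fixed seed, which leaves out shallower nuclei. No doublet caller was run, and leaving out the 5% of nuclei with the most counts stands in its place. Genes were named by a fixed rule, namely those in the window, Cyp2e1, up to 8 of the sulfation list with values and the 5 of nearest pattern. Hsd17b13 and Glul, from the fixed lists of zonated genes, were singled out after their values were seen. With 1 library per time no test was run, and p-values are absent. The ratio calculation was tested on simulated data. Python 3.11.15, numpy 2.4.6, pandas 2.3.3 and scipy 1.17.1 were used.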

Additional observations from a re-analysis of the deposited data

Results flagged for a closer look

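Barcodes with fewer than 1000 counts entered the count of barcodes shared between libraries and the alternative that keeps every deposited barcode, and no level or open share of the report. They held counts at the Sult2a8 locus above the limit that a count of 0 would allow (3 counts of their total). The level was 237 CPM (172 to 319) at PHx 0 h, from 668 barcodes, 105 CPM (70.3 to 151) at 48 h, from 1081, 126 CPM (94.2 to 166) at 72 h, from 1444, and 135 CPM (103 to 174) at 96 h, from 1675. The limits were 8.18, 5.43, 3.68 and 3.43 CPM. PHx 0 h was again highest, but its interval overlaps that of 96 h just as the 3 later libraries overlap each other, unlike in the nuclei kept. Whether these barcodes are nuclei of low depth or free fragments was not tested.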

How the results depend on the processing

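The log2 ratios of the locus to PHx 0 h kept their sign under all alternatives but 1. Per kb of called peak they were −0.86 at 48 h, −0.40 at 72 h and 0.74 at 96 h, where the sign turned, and per kb relative to the mean density of the library, an alternative chosen after seeing the data, −0.63, −0.52 and −0.59. With each peak of a nucleus counted once at most they were −0.79, −1.13 and −0.42. With peaks over the gene only they were −1.69 at 48 h and −0.88 at 96 h. Scaled by counts in regions with a peak in all 4 libraries they were −1.69 at 48 h and −1.19 at 96 h, and scaled by the median of ratios over these −1.27 at 96 h. The other 19 values lay within the counting interval of the main one, among them those with other minimum counts, without the deepest or marker-rich nuclei and, added after seeing the data, without barcodes shared between libraries. The cause of these shifts was not tested, beyond the change in called length that the densities show.

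The open shares depend on the depth drawn by construction. With 1000 counts they were 24.6%, 7.12%, 6.25% and 9.96% at 0, 48, 72 and 96 h, with 3000 counts 53.3%, 19.7%, 15.7% and 25.9%, and with no drawing 79.2%, 40.1%, 18.3% and 24.5%. Without drawing, the correlation with Cyp2e1 was 0.684, 0.473, 0.248 and 0.331, values that share the depth of each nucleus, and the other 20 correlations stayed within the counting interval. No paired analysis was possible because each time has 1 library. At 72 h and 96 h, 1983 and 2237 counts at the locus limit the precision.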
